A study of Mus musculus with 2 samples.

Results

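NK cells of the mouse omentum were taken from droplet-based single-cell RNA sequencing, chosen by the values of 9 genes. A cell entered this NK gate if 200 to 7500 genes were detected in it, *Ncr1* was above 0, *Cd3e*, *Cd3d* and *Cd79a* were at 0, and 1 or more of 5 killer cell genes (*Klrb1c*, *Gzma*, *Klre1*, *Klra8*, *Klra4*) was above 0. The gate held 417 of 14414 cells, of which 307 came from the 8680 cells of the WT library and 110 from the 5734 cells of the Postn-DTR library. The omentum is a fold of peritoneal fat with lymphoid clusters called milky spots, and the study asked what becomes of the omental leukocytes when Postn-expressing cells are removed. In Postn-DTR mice the diphtheria toxin receptor was knocked into the first coding exon of *Postn*, in zygotes of C57BL/6 mice, so that diphtheria toxin (DT) kills cells that use this promoter. WT mice lacked the receptor and received DT as well, and both groups were taken 5 days after DT. Cells other than the stromal cells of milky spots can also use the *Postn* promoter. The sources used here give neither the age nor the sex of the mice. Each library pooled the mice of its group, so there was 1 library per group and no replicate. Differences below compare those libraries, no test between the groups was possible, and all intervals are 95% intervals that cover counting error only.

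NK cells are innate lymphocytes that kill infected or transformed cells without an antigen receptor of their own making. They weigh signals from inhibitory receptors, such as CD94-NKG2A and many but not all of the Ly49 family, which read MHC class I on other cells, against those from activating receptors such as NKp46 (*Ncr1*) and NKG2D (*Klrk1*). A triggered NK cell releases perforin and granzymes from its granules and secretes interferon-gamma and the chemokines CCL3, CCL4, CCL5 and XCL1. NK cells depend on the transcription factors T-bet and EOMES, and the related type 1 innate lymphoid cells (ILC1) share NKp46 and T-bet but generally lack EOMES and keep the IL-7 receptor.

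In both libraries the gated cells carried the transcripts of cytotoxic lymphocytes beyond those that chose them. The values of the gate genes themselves describe the choice and are no finding. *Ncr1* was read with 1 unique molecular identifier (UMI, 1 per captured transcript) in 50 WT and 27 Postn-DTR gated cells and with 2 or more in 257 and 83. Just outside, 29 WT and 19 Postn-DTR cells held 2 or more killer cell genes but no *Ncr1* UMI and met the other conditions. Among genes that the gate did not use, *Prf1*, the pore-forming protein of cytotoxic granules, was read in 80.1% of the WT cells of the gate and in 70.0% of those of Postn-DTR. *Nkg7*, a granule membrane protein, was read in 98.1% and 98.2%, and *Klrk1* in 89.9% and 96.4%. The T-box factor gene *Eomes* was read in 60.9% (interval 55.2% to 66.4%) and 51.8% (42.1% to 61.4%). In the B cell gate (*Cd79a* above 0 with *Cd3e*, *Cd3d* and *Ncr1* at 0), which should lack these genes, *Prf1* was read in 1.5% and 0.5% of cells and *Eomes* in at most 0.2% of either library, although B-gate cells were deeper, with a median of 6686.5 UMIs in WT and 19708.5 in Postn-DTR against 3875 and 4114.5 in the NK gate. Ranked by the smaller of the ratios to the other cells in the 2 libraries, the 20 leading genes outside the gate were *Prf1*, *Klri2*, *Gzmb*, *Eomes*, *Klra9*, *Klrb1a*, *Adamts14*, *Klrc1*, *Serpinb9*, *Klrb1b*, *Xcl1*, *Klra3*, *Nkg7*, *Sytl3*, *Klrb1f*, *Klrk1*, *Car2*, *Ccl4*, *Klrc2* and *AW112010*, with that log2 ratio between 4.90 and 3.24. These values describe the gated cells and are not a test of them.

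Each gated WT cell held 508 to 25378 UMIs and each gated Postn-DTR cell 1788 to 19504, which made 1290023 and 545430 in all, with a median of 1738 and 1802.5 genes. The median share of mitochondrial UMIs was 1.53% and 1.46%. Of the gated WT barcodes 2 also occurred in the Postn-DTR library, and none of the gated Postn-DTR barcodes occurred in WT. Some genes that mark other lineages were missing, while other members of the same marker lists were read. No UMI of *Cd5*, *Cd8b1* or *Themis* (T cells), *Ebf1* or *Pax5* (B cells), *Csf1r* (macrophages), *Il5* or *Il13* (type 2 innate lymphoid cells, ILC2) or *Il22* and *Il17a* (ILC3) was found in the 417 cells, which allows a share of up to 0.719% of cells with a UMI. Of the 12 T cell markers 5 were at 0 in both libraries, and the summed level of the list reached 18.9 UMIs per 10000 in a WT cell and 17.8 in a Postn-DTR cell, with most of its UMIs from the constant segments *Trbc1* and *Trbc2*. Plasma cell markers were read in more cells: the 9 markers summed to a median of 4.95 and 10.1 UMIs per 10000 (ranges 0 to 53.0 and 0 to 162), *Igkc* was read in 28.3% of gated WT cells and 70.0% of gated Postn-DTR cells, and its level in all cells outside the gate was 36.0 and 156 UMIs per 10000. The 10 neutrophil markers reached a sum of 9.85 in a WT cell and 1307 in a Postn-DTR cell, and in the latter library 2 cells held 872 and 564 of the 1466 *S100a8* and *S100a9* UMIs. The part of these RNAs in the results below was not tested beyond repeating the comparison without those 2 cells.

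NK-gated cells took a smaller share of the Postn-DTR library than of the WT library. They were 3.54% of WT cells (3.16% to 3.95%) and 1.92% of Postn-DTR cells (1.58% to 2.31%), a ratio of 0.542 (0.437 to 0.673). This share depended on what it was a share of. Without the plasma and neutrophil gates (*Jchain* at 10 or more UMIs per 10000 with *Mzb1*, or *S100a8* and *S100a9* both at 10 or more), it was 3.96% in WT and 4.28% in Postn-DTR, a ratio of 1.08 (0.871 to 1.34). Among the T, killer-receptor T and NK gates together it was 9.69% and 18.7%, a ratio of 1.93 (1.58 to 2.36). Among all cells, the share of the other lymphocyte gates had a ratio of 0.248 for T cells without killer cell genes (2654 and 435 cells), 0.307 for T cells with 2 or more killer cell genes (207 and 42 cells) and 1.11 for ILC2 (*Il1rl1* and *Gata3* above 0, 101 and 74 cells). Since the number of cells per omentum is not in the files, a share cannot tell fewer NK cells from more cells of other kinds.

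**Figure D1:**
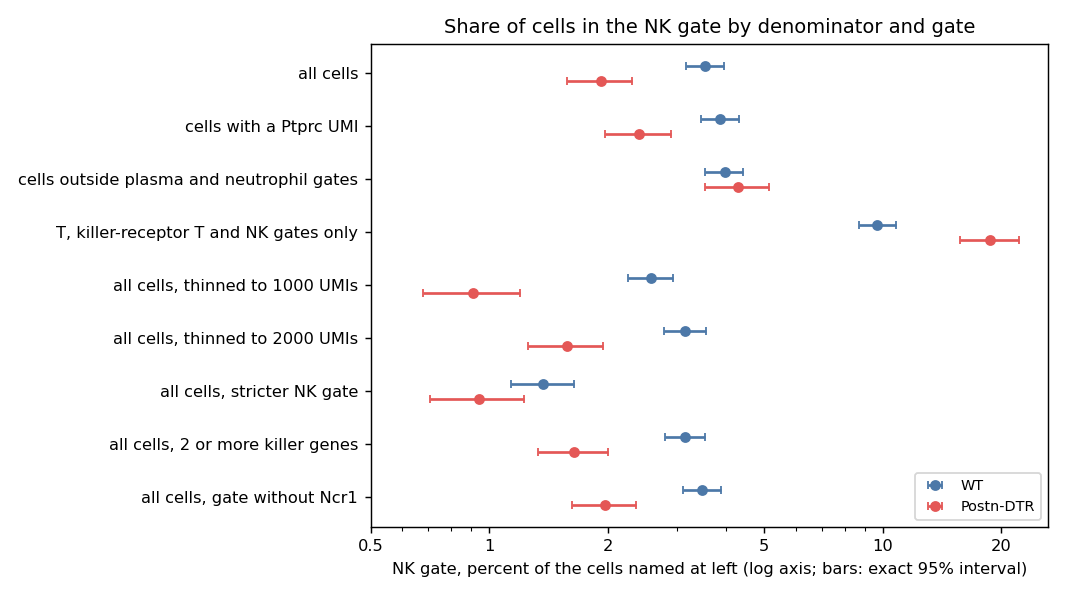
Share of NK-gated cells (percent, log axis) in the WT (blue) and Postn-DTR (red) libraries under 9 choices of denominator, depth or gate, with exact 95% binomial intervals; each library gives 1 point per choice. The Postn-DTR point lies left of the WT point for all cells (1.92% against 3.54%), and right of it outside the plasma and neutrophil gates (4.28% against 3.96%) and among T and NK gates (18.7% against 9.69%).

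Most transcripts of NK-gated cells were at similar levels in the 2 libraries, and the transcripts of secreted mediators stood among those that were lower in Postn-DTR. A level here is the mean over cells of UMIs per 10000 UMIs of the cell, and the log2 ratio is Postn-DTR over WT with 0.1 added to both levels. Of 5208 genes with 50 or more UMIs, 38 were past 2-fold higher (0.730% of the genes compared) and 45 past 2-fold lower (0.864%). The median log2 ratio was -0.07, so more of the genes compared lay below 0 than above it. Counts of ratios below 0 in the lists that follow are to be read against this. The ratios of 5% of genes were below -0.64 and of 5% above 0.52. Of the 83 genes past 2-fold, 23 were immunoglobulin or T cell receptor genes, or, in the library where they were higher, owed over 25% of their UMIs to 1 cell or were at under 0.5 times the level of the other cells, and were not ranked. That left 18 higher and 42 lower.

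**Figure D2:**
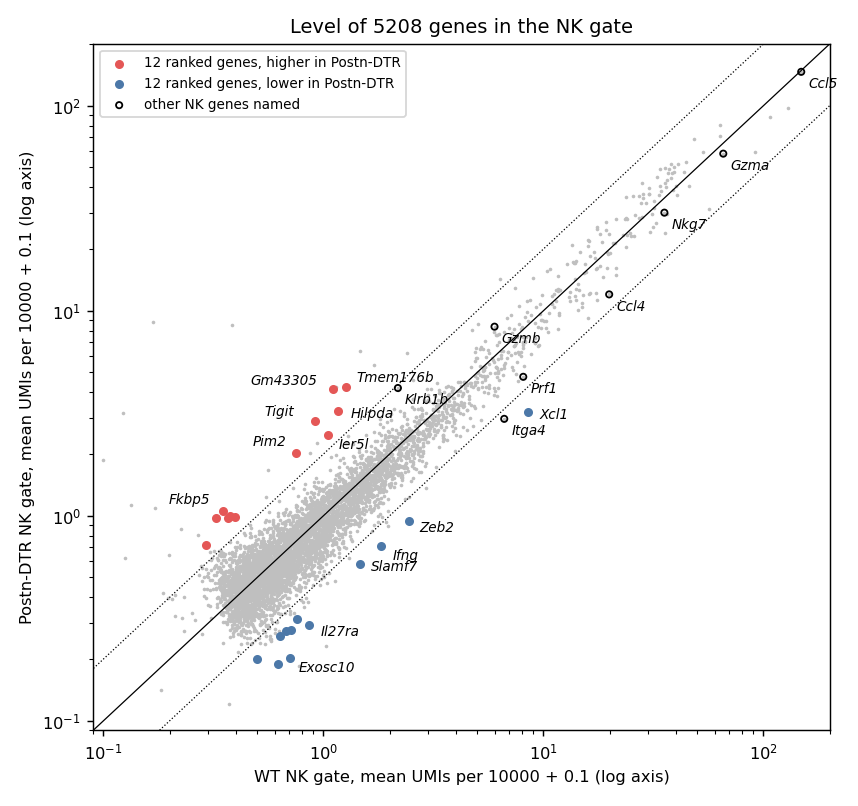
Level of 5208 genes in the NK gate, WT on the x axis and Postn-DTR on the y axis (mean UMIs per 10000 plus 0.1, log axes), with equality as a solid line and 2-fold as dotted lines; red and blue points are the 12 highest and 12 lowest ranked genes and open circles other NK genes. *Ccl5* and *Nkg7* lie near equality, *Tigit*, *Fkbp5* and *Pim2* above the upper dotted line, and *Xcl1*, *Ifng*, *Zeb2* and *Itga4* below the lower one.

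Of the 9 cytokine and chemokine genes compared, 3 were past 2-fold lower in Postn-DTR and none past 2-fold higher, 2 had a ratio above 0 and 7 below, and the median log2 ratio was -0.34. *Xcl1*, the chemokine that draws cross-presenting dendritic cells, (chr1:164931644-164935527), was at 8.45 in the WT and 3.12 in the Postn-DTR library, which is -1.41 as a log2 ratio. Its UMIs were 1105 and 192, which put the ratio of summed UMIs between -1.51 and -1.06. *Xcl1* was read in 62.9% of WT cells (57.2% to 68.3%) and 44.5% of Postn-DTR cells (35.1% to 54.3%), and 10 or more UMIs were found in 28 WT and 3 Postn-DTR cells. *Ifng*, the macrophage-activating cytokine (chr10:118441046-118445892), had a level of 1.73 and 0.613 with a log2 ratio of -1.36, from 222 and 48 UMIs in 95 WT and 22 Postn-DTR cells. The log2 ratio of its summed UMIs was -0.97 (-1.45 to -0.51), which is not past 2-fold. Of its 1211 windows of 90 bases, 169 are shared with the overlapping gene *Gm49751*. *Ccl3*, a chemokine for myeloid cells and lymphocytes, was at 2.83 and 1.27 (log2 ratio -1.10), but the interval from its summed UMIs, -0.97 to -0.27, did not reach 2-fold. *Ccl4*, its neighbour in the same chemokine cluster, was at 19.8 and 11.9 (-0.73), with 1 to 145 UMIs in the 167 WT cells that held it, and the ratio was -0.11 in a stricter gate that also left out cells with a UMI of further T cell, B cell or myeloid genes such as *Trac*, *Trbc1*, *Trbc2*, *Cd3g*, *Ms4a1* and *Lyz2*. *Ccl5* did not follow these genes, with 148 in WT and 146 in Postn-DTR (log2 ratio -0.02).

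The same order held when every cell was thinned to 2000 UMIs, which left out 16 WT cells and 1 Postn-DTR cell. Then *Xcl1* was read in 54.3% of WT and 32.1% of Postn-DTR cells, *Ifng* in 23.4% and 12.8%, and *Ccl3* in 24.7% and 12.8%. In the B gate *Xcl1* and *Ifng* were read in at most 0.2% of cells of either library. *Ifng* and *Xcl1* were found together in 63 of the 95 WT cells with *Ifng* (66.3%, 55.9% to 75.7%) and in 6 of the 22 Postn-DTR cells with *Ifng* (27.3%, 10.7% to 50.2%). Among cells without *Ifng*, *Xcl1* was read in 61.3% of the WT cells (54.4% to 67.9%) and 48.9% of the others (38.1% to 59.8%).

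**Figure D3:**
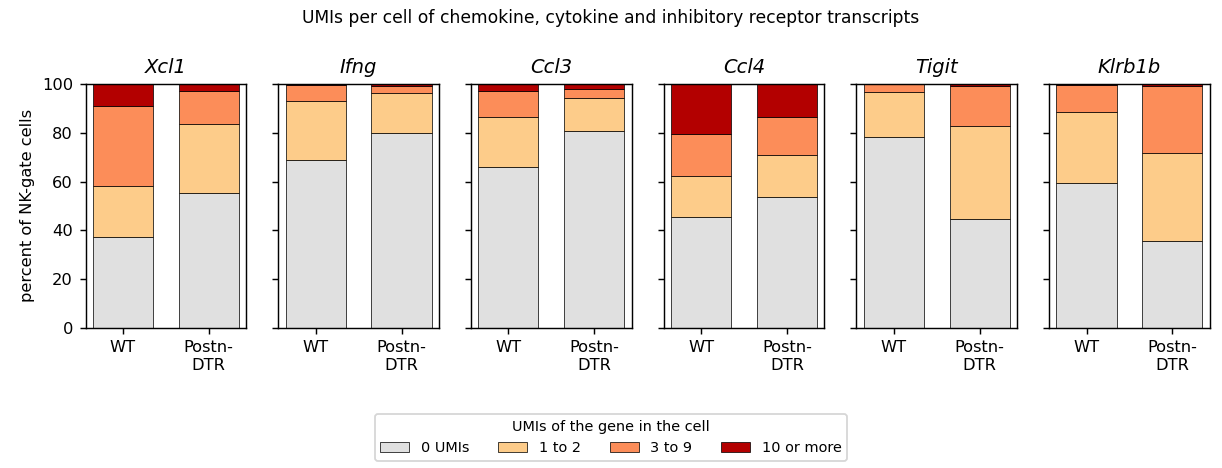
Percent of NK-gated cells (y axis) by the UMIs of 6 genes in the cell, as stacked bars for 307 WT and 110 Postn-DTR cells: 0 UMIs in grey, 1 to 2 in yellow, 3 to 9 in orange and 10 or more in dark red. Cells with no UMI took a larger part of the Postn-DTR bar for *Xcl1*, *Ifng*, *Ccl3* and *Ccl4*, and a smaller part for *Tigit* (44.5% against 78.5%) and *Klrb1b* (35.5% against 59.3%).

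The 250 bases before the annotated starts of *Xcl1*, *Ifng*, *Ccl3* and the inhibitory receptor gene *Tigit* are shown for the mediators past 2-fold lower and for the receptor of the ranked genes past 2-fold higher, as RefSeq bases of the GRCm38.p6 genome on the strand of the gene. For *Xcl1*, *Ccl3* and *Tigit* the RefSeq start is not the end of the GENCODE M21 gene, from which the gene coordinates given here come. They were searched on both strands for 4 sets of letters: TCACACC, the core of a T-box site, TGANTCA, an AP-1 site, ACANNNTGT, the spaced half-sites of a steroid receptor element, and TATAAA. Capitals mark a match. TATAAA begins 30 bases before the start of *Ifng*, the T-box core on the other strand 188 bases before that of *Xcl1* and the spaced half-sites 118 bases before that of *Tigit*, and none of the 4 was found for *Ccl3*. Of 32851 promoters of this length, 12.4% held TATAAA, 3.33% TCACACC, 5.84% ACANNNTGT and 6.75% TGANTCA. A match is a set of letters and says nothing of binding.
Xcl1 (chr1:164935523-164935772, minus strand): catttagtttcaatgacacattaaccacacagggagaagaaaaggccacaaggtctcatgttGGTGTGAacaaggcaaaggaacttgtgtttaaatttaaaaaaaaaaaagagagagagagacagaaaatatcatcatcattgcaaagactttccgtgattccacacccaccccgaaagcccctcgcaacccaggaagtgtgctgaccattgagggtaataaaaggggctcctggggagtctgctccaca
Ifng (chr10:118440796-118441045, plus strand): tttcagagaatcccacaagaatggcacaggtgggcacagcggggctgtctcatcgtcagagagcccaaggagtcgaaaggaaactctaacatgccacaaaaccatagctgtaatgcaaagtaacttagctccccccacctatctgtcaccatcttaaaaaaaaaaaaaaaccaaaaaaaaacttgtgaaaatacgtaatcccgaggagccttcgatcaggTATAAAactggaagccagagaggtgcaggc
Ccl3 (chr11:83649379-83649628, minus strand): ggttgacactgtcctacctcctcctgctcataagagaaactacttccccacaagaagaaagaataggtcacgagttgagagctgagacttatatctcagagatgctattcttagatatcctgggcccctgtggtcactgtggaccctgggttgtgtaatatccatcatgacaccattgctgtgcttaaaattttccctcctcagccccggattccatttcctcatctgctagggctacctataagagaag
Tigit (chr16:43664185-43664434, minus strand): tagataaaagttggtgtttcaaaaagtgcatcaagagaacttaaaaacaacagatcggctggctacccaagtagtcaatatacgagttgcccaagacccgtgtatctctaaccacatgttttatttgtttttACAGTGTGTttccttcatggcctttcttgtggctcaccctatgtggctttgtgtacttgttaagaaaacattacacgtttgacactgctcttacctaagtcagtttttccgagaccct

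Transcripts of the killing machinery went both ways. Of 11 cytotoxic effector genes compared outside the gate, 1 was past 2-fold higher and none past 2-fold lower. The ratios of 4 lay above 0 and of 7 below, and the median log2 ratio was -0.18. *Prf1* was at 7.99 and 4.66 (log2 ratio -0.77, 877 and 212 UMIs, -1.03 to -0.59 from summed UMIs). *Gzmb*, the granzyme that starts apoptosis in the target cell, was at 5.89 and 8.26 (0.48, 651 and 398 UMIs, 0.35 to 0.71) and was read in 45.9% and 56.4% of cells. Of the serpin genes, which include inhibitors that guard the killer cell against its own granzymes, *Serpinb9* was at 7.02 and 9.42 (log2 ratio 0.42), *Serpinb6b* at 4.96 and 8.48 (0.76) and *Serpinb9b* at 0.770 and 1.93 (1.22, 79 and 84 UMIs, and 0.66 in the stricter gate). *Srgn*, the proteoglycan that packs the granules, was at 10.9 and 10.7, and *Fasl*, the ligand of the death receptor FAS, at 3.73 and 3.02.

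Among receptors, *Tigit* stood out on the higher side. TIGIT is an inhibitory receptor that binds CD155 on other cells. Its gene (chr16:43648867-43664146) was at 0.820 in WT cells and 2.78 in Postn-DTR cells, with a log2 ratio of 1.65 from 109 and 140 UMIs (1.23 to 1.98). It was read in 21.5% of WT cells (17.0% to 26.5%) and 55.5% of Postn-DTR cells (45.7% to 64.9%). Thinned to 2000 UMIs these shares were 14.1% and 31.2%. In the B gate the shares were 6.1% and 28.8%, and 1.0% and 6.7% when thinned, so that *Tigit* was read in more cells of the Postn-DTR library there as well. *Cd226* and *Cd96*, the activating and the other receptor for the same ligand, had log2 ratios of -0.16 and -0.08. *Slamf7*, a receptor that binds itself on neighbouring cells, was at 1.37 and 0.481 (-1.34, 179 and 24 UMIs). It had a UMI in 34.7% and 67.6% of B-gate cells, which do not lack the gene.

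Of the 14 activating receptors, adapters and checkpoint genes compared outside the gate, 12 had a ratio below 0, with a median of -0.26, and *Tigit* and *Slamf7* were the 2 past 2-fold. *Klrk1* was at 7.46 and 7.42 (log2 ratio -0.01) and its adapter *Hcst* at 6.44 and 4.74 (-0.43). The adapters *Tyrobp* and *Fcer1g*, which carry the signalling motif of several activating receptors, had log2 ratios of -0.58 and -0.33. None of the 4 Ly49 genes compared outside the gate (*Klra1*, *Klra3*, *Klra7* and *Klra9*) was past 2-fold, all 4 ratios lay below 0 in the main comparison and their median was -0.33, with *Klra9* at 0.05 and *Klra1* at 0.06 when cells were thinned to 2000 UMIs. *Klra1* had -0.45 in the main comparison and -1.21, past 2-fold, in the stricter gate. In the NKR-P1, CD94 and NKG2 group 9 genes outside the gate were compared and none was past 2-fold. *Klrb1b*, the inhibitory NKR-P1 receptor for the lectin Clr-b, came closest, with 2.08 and 4.10 (0.95, 266 and 208 UMIs, 0.62 to 1.15), and was read in 40.7% and 64.5% of cells, or 28.2% and 47.7% when thinned, against 0.4% in the B gate of both libraries. Of its 90-base windows 22.9% are shared with the overlapping annotated gene *Gm44511*, so its reads could be split in counting. *Klrd1* (CD94) and its inhibitory partner *Klrc1* had log2 ratios of -0.13 and -0.12.

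Of 18 transcription factor genes compared, 1 was past 2-fold and lower, with a median of -0.22. *Zeb2*, a repressor needed for the last steps of NK maturation (chr2:44983632-45117395), had a level of 2.34 and 0.845 (log2 ratio -1.37, 218 and 42 UMIs, -1.65 to -0.65) and was read in 41.0% and 24.5% of cells. Thinned to 2000 UMIs its log2 ratio was -0.77, not past 2-fold, and it was read in 24.1% and 14.7% of NK-gated cells and in 8.2% and 4.4% of B-gate cells. *Tbx21* (T-bet) was at 3.82 and 3.48 (-0.13). *Eomes* was at 3.90 and 2.38 (-0.69), and had a log2 ratio of -0.14 in the stricter gate, where it was read in 61.3% of 119 WT and 64.8% of 54 Postn-DTR cells. Of 13 maturation genes compared none was past 2-fold in the main comparison. The largest ratios of this list were those of *Kit* (-0.94, and -1.41 when thinned) and *Ly6a* (0.92, and 0.07 when thinned). *Cd27* of the earlier stages was read in 36.2% and 34.5% of cells and *Itgam* (CD11b) of the later ones in 40.7% and 39.1%. Thinned shares were 19.9% and 17.4% for *Cd27* and 29.6% and 22.9% for *Itgam*, and *Itgam* was read in 8.7% and 7.7% of B-gate cells. *Klrg1*, a marker of terminal stages, was read in 22.5% and 20.9%.

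Of 18 trafficking and adhesion genes, 1 was past 2-fold and lower, and 13 had a ratio below 0 (median -0.28, against -0.07 over all genes compared). *Itga4*, the alpha-4 chain of the integrins that hold lymphocytes to VCAM-1 and MAdCAM-1, had a level of 6.53 and 2.87 (log2 ratio -1.16, 795 and 147 UMIs, -1.46 to -0.94). Its partner *Itgb7* was at 2.71 and 1.74 (-0.61), and the leukocyte integrin chains *Itgal* and *Itgb2* had log2 ratios of -0.55 and -0.59. *Rara*, a nuclear receptor for retinoic acid, was at 0.473 and 0.150 (-1.20, 56 and 8 UMIs). Of the 4 retinoic acid response genes compared, 3 had a ratio below 0 and 1 above. *Rara* and *Itga4* were the 2 past 2-fold, and *Dhrs3* had a log2 ratio of 0.31. *Itga4* is also counted among the trafficking genes, and *Rara* had a log2 ratio of -0.58 with 0.5 added. *S1pr5*, which guides NK cells out of tissues, was at 1.22 and 0.735 (-0.66) and *Cxcr3* at 0.971 and 1.32 (0.41).

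Cytokine receptor genes were near the middle of all genes, with 13 compared, none past 2-fold and a median log2 ratio of 0.01. *Il2rb*, the receptor chain for IL-15 on which NK cells live, was at 15.2 and 15.1 (log2 ratio -0.01), while the common chain *Il2rg* was at 7.38 and 4.80 (-0.61). *Il12rb2*, *Il18r1* and *Il18rap*, the receptors for the cytokines that call up interferon-gamma, had log2 ratios of 0.01, -0.14 and 0.08. *Il27ra*, the receptor for IL-27, was among the ranked genes, at 0.763 and 0.194 (-1.55, 98 and 11 UMIs). It was also lower in all cells outside the NK gate, at 0.817 and 0.190.

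Glucocorticoid-induced genes were mostly higher, with 8 of 9 ratios above 0 and a median of 0.42. *Fkbp5*, a co-chaperone and target of the glucocorticoid receptor (chr17:28399094-28517527), was the member past 2-fold, at 0.250 and 0.949 (log2 ratio 1.58, 33 and 48 UMIs, 1.11 to 2.47), and was read in 9.4% and 36.4% of cells, or 4.8% and 13.8% when thinned. In the B gate it was read in 2.1% and 7.6% of cells when thinned. *Tsc22d3* (GILZ) was at 2.08 and 3.99 (0.91) and *Klf9* at 0.253 and 0.540 (0.86), while *Sgk1* was at 1.56 and 0.747 (-0.97). *Fkbp5* was also higher in all cells outside the NK gate, at 0.183 and 0.710. The survival gene *Bcl2* was at 1.70 and 2.71 (0.64), and the median of the 9 survival genes was 0.02. The pro-survival kinase gene *Pim2* was at 0.648 and 1.92 (1.43).

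The other ranked genes were mostly low. On the higher side they were *Gm43305*, a non-coding transcript at 1.01 and 4.05 (log2 ratio 1.90, 8.76% of its windows shared with other genes), *Tmem176b* (1.75), the proton channel gene *Hvcn1* (1.58), *Hilpda* (1.49), a lipid droplet protein, *Ckb* (1.41), creatine kinase, *Tmem106b* (1.40), *Cpne7* (1.32), *Gpat4* (1.30), an enzyme of glycerolipid synthesis, and *Ier5l* (1.24, 0.950 and 2.38). *Tmem176b*, *Hvcn1* and *Ckb* were ranked by their Postn-DTR levels, and in WT they were lower in the gate than in the other cells (1.16 against 2.51, 0.225 against 1.32 and 0.269 against 0.995). So were *Gm43305* (1.01 against 1.84), *Hilpda* (1.06 against 1.81) and *Gpat4* (0.193 against 0.230). *Gm43305* and *Hilpda* were also higher in Postn-DTR over all cells outside the gate, at 1.84 and 2.73 and at 1.81 and 3.21. Of the 79 *Ckb* UMIs in WT 37 came from 1 cell, and the log2 ratio of its summed UMIs was 0.87. *Hilpda* had a log2 ratio of 0.58 in the stricter gate and 0.73 in cells without an *Il7r* UMI, and *Cpne7* had 0.87 and 0.56. On the lower side they were *Exosc10* (-1.79), a subunit of the RNA exosome, *St3gal1* (-1.72), a sialyltransferase, *Rai1* (-1.36), *Elovl6* (-1.31), a fatty acid elongase, *Dnlz* (-1.30), *Keap1* (-1.29), the sensor that holds down NRF2, and *Sidt1* (-1.28). These genes were also lower in Postn-DTR over all cells outside the gate, most for *Sidt1* (0.400 and 0.0625) and least for *St3gal1* (0.489 and 0.473). Apart from *Elovl6*, *Rai1*, *Keap1* and *Sidt1*, with 9 to 12 UMIs in Postn-DTR, the lower ones named here had 8 UMIs or fewer in that library. All 24 ranked genes kept their direction under each of the settings tried.

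The targeted gene *Postn* gave 1 UMI in WT and 0 in Postn-DTR gated cells, so NK cells do not check the deletion. Of the genes that the study names for lymphocytes of the 2 libraries, *Tmsb10*, an actin-binding peptide, was at 91.0 and 59.1 (log2 ratio -0.62), *Cd52* at 21.2 and 14.8 (-0.52) and the ribosomal protein gene *Rps21*, with 2116 and 629 UMIs, had a log2 ratio of -0.42. *Ly6d* had 75 and 1 UMIs, most of the WT UMIs from 1 cell. The study chose these genes on these samples.

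NK-gated cells were not uniform, and the same split was seen in both libraries. *Il7r*, the IL-7 receptor chain that marks ILC1 and some immature NK cells, was read in 75 WT cells (24.4%, 19.7% to 29.6%) and 32 Postn-DTR cells (29.1%, 20.8% to 38.5%), against 1.5% and 1.4% in the B gate. Thinned to 2000 UMIs the shares were 16.5% and 26.6%, and in the stricter gate 23.5% and 16.7%. The genes of this split were picked after their values were seen, and it carries no test. Cells with an *Il7r* UMI had *Eomes* in 36.0% (WT) and 28.1% (Postn-DTR), against 69.0% and 61.5% of cells without. They had lower levels of the killing genes, with *Gzmb* at 0.692 against 7.57 in WT and 2.18 against 10.8 in Postn-DTR, and *Prf1* at 3.24 against 9.53 and 2.41 against 5.58. *Irf8*, a transcription factor of NK maturation, was at 3.19 against 13.6 and 3.26 against 13.3. They had higher levels of *Tmem176b* (3.82 against 0.301 in WT, 11.9 against 0.952 in Postn-DTR), *Rora* (1.48 against 0.279, 2.38 against 0.404), *Ltb* (5.67 against 1.32, 4.31 against 1.07) and *Cxcr3* (2.07 against 0.616, 2.56 against 0.819). *Cxcr6* and *Itga1*, further ILC1 markers, were read in 4.9% and 2.0% of all WT gated cells and 9.1% and 1.8% of Postn-DTR ones.

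Ly49 genes were read in a smaller share of the cells with an *Il7r* UMI than of those without. Of 7 Ly49 genes outside the gate, a count chosen after seeing the data, cells without an *Il7r* UMI held a mean of 1.30 in WT and 1.40 in Postn-DTR, and 21.1% (16.1% to 26.9%) and 11.5% (5.41% to 20.8%) held none. Cells with an *Il7r* UMI held a mean of 0.480 and 0.313, and 64.0% (48 of 75 cells) and 78.1% (25 of 32 cells) held none. Ly49 genes were read in overlapping sets of cells: *Klra7* was read together with *Klra9* in 44 WT and 14 Postn-DTR cells, and *Klra9* was in 35.2% of WT cells with *Klra7* and 30.2% of those without it, against 31.8% and 36.4% in Postn-DTR. Up to 4 of these Ly49 genes were read in 1 cell. The Ly49 genes are near-identical in parts, and 16.1% of the windows of *Klra8* and 6.34% of those of *Klra9* are shared with other genes, so that reads could be split among them.

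**Figure D4:**
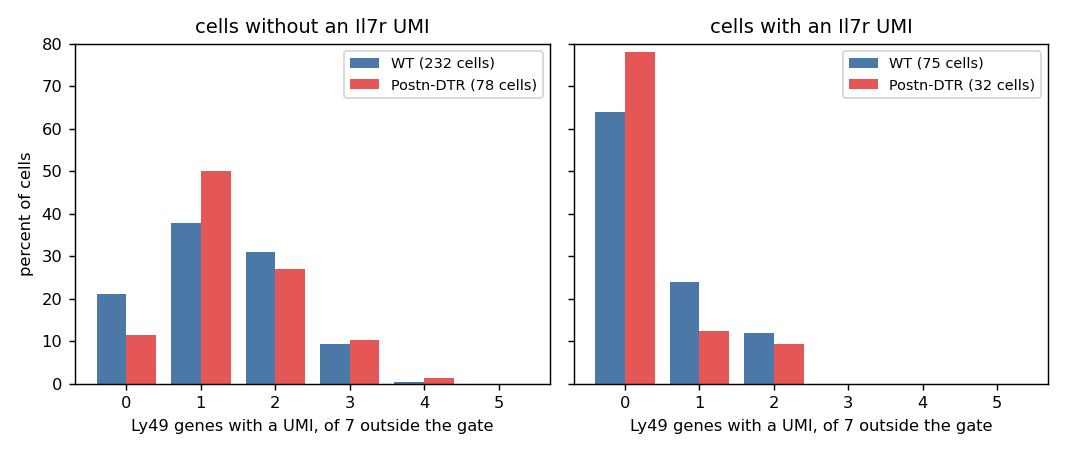
Percent of cells (y axis) by the number of Ly49 genes with a UMI, of 7 outside the gate (x axis), in NK-gated cells without (left) and with (right) an *Il7r* UMI; blue bars are WT and red bars Postn-DTR cells, 1 library each. Cells without *Il7r* peak at 1 gene in both libraries, and most cells with *Il7r* hold none (64.0% and 78.1%).

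Of the 83 genes past 2-fold, 70 stayed so in cells without an *Il7r* UMI, as did 21 of the 24 ranked genes, the others being *Hilpda*, *Cpne7* and *Ckb* (0.94). The genes named next were picked after their values were seen. In cells without an *Il7r* UMI (232 and 78) the log2 ratio was 1.80 for *Tigit*, -1.28 for *Xcl1*, -1.48 for *Ifng*, -1.41 for *Zeb2* and 1.25 for *Fkbp5*. In the 75 and 32 cells with one it was 1.04, -1.72, -1.16, -0.59 and 2.25. *Ccl3* went apart, with -1.25 without *Il7r* and 0.22 with it, from 26 and 15 UMIs in the latter. *Gzmb* had log2 ratios of 0.50 and 1.52. These differences between the 2 sides were not tested.

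Few NK-gated cells were in cycle. Cells with 4 or more of 10 proliferation genes numbered 5 in WT (1.63%, 0.531% to 3.76%) and 5 in Postn-DTR (4.55%, 1.49% to 10.3%). Of 11 cell cycle genes compared, 10 had a ratio above 0 with a median of 0.44, and *Ube2c*, which marks cells near division, was past 2-fold (1.69). Without those 10 cells the ratio of *Ube2c* was 0.56. The ratios of *Mcm5*, *Mcm3*, *Top2a*, *Pclaf*, *Birc5* and *Rrm2* were then 0.69, 0.49, 0.38, 0.27, 0.16 and 0.14. Those of *Stmn1*, *Tubb5*, *Mki67* and *Hmgb2* lay below 0, at -0.11, -0.15, -0.32 and -0.48. In the stricter gate most of the list lay below 0. There *Mki67*, *Top2a*, *Hmgb2* and *Rrm2* had ratios of -1.23, -0.56, -0.54 and -0.29, and *Tubb5*, *Birc5* and *Pclaf* -0.15, -0.11 and -0.03. *Mcm5*, *Mcm3*, *Ube2c* and *Stmn1* lay above 0 in that gate, at 0.54, 0.32, 0.27 and 0.11.

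Set beside the other lymphocyte gates of the same libraries, NK-gated cells shared some differences and were farther out for others. *Tigit* had log2 ratios of 1.65 in the NK gate, 2.14 in T cells with killer cell genes and 1.57 in T cells without. *Fkbp5* was at 1.58, 0.85 and 1.42, and *Tsc22d3* at 0.91, 0.76 and 0.86, with 1.13 in ILC2. *Xcl1* was at -1.41, -0.58 and -0.48, *Ifng* at -1.36, -0.80 and 0.07, *Zeb2* at -1.37, 0.16 and -0.36, and *Itga4* at -1.16, -0.76 and -0.65 in the same order. *Ccl3* and *Ccl4* were at -1.10 and -0.73 in the NK gate and at -1.89 and -1.79 in killer-receptor T cells, the latter with 3 *Ccl3* UMIs in Postn-DTR. *Gzmb* was at 0.48 in the NK gate against 1.98 and 1.65 in the T gates. With 1 library per group the differences between gates were not tested, and none is read as particular to NK cells.

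**Figure D5:**
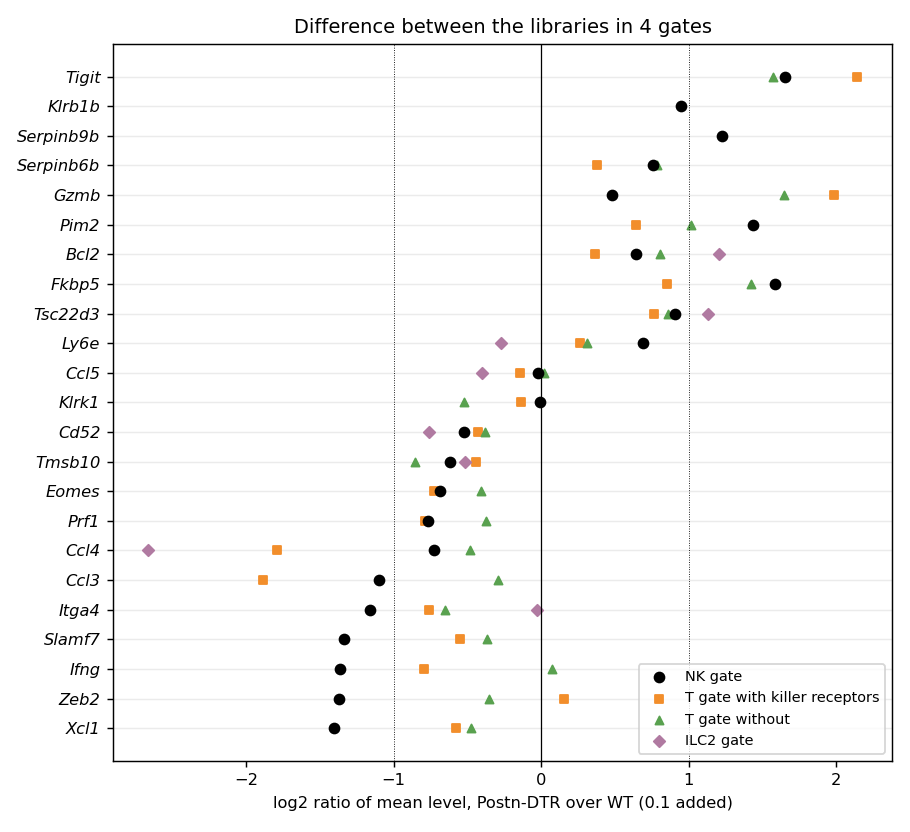
Log2 ratio of level, Postn-DTR over WT (x axis, 0.1 added), for 23 genes in the NK gate (black circles), T cells with killer cell genes (orange squares), T cells without (green triangles) and ILC2 (purple diamonds); other gates are drawn where the gene had 50 or more UMIs there, and dotted lines mark 2-fold. *Tigit*, *Pim2*, *Bcl2* and *Tsc22d3* lie right of 0 and *Itga4*, *Cd52* and *Tmsb10* left of 0 in every gate drawn, while *Xcl1* and *Ifng* lie farther left in the NK gate (-1.41 and -1.36) than in either T gate.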

How the data were processed

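Omental cells of 1 WT and 1 Postn-DTR library were captured on the Chromium platform and counted by the authors with Cell Ranger 6.0.0 on mm10, per the submitters' processing notes. The labels name a 5′ reagent kit and the study's methods a 3′ kit. The values the authors deposited are natural log values, the natural log of 1 plus UMIs scaled to 10000 per cell. Counts were therefore recovered from the smallest step of each cell: 99.95% of WT and 99.89% of Postn-DTR values came out whole within 0.1 UMI. No count model was run with 1 library per group. Cells with 200 to 7500 genes were kept. Scrublet (scanpy 1.11.5) called 2 WT and 73 Postn-DTR cells doublets, a number too low in WT to have worked (0 and 1 in the NK gate), and none was removed. Levels are mean UMIs per 10000; 0.1 was added before log2 ratios, and genes with 50 or more UMIs over both libraries were compared. Past 2-fold stands in for a call. Intervals are Clopper-Pearson (shares), Katz (ratios of shares) and conditional binomial (ratios of summed UMIs), made with Python 3.11.15, numpy 2.4.6, scipy 1.17.1 and pandas 2.3.3, and figures with matplotlib 3.10.9. The script was tested on simulated data. Genes named were members of listed gene groups with 20 or more UMIs, the 12 highest and 12 lowest ratios after the exclusions given, the 20 leading genes against other cells (in 10% or more of gated cells), and the genes the study names. A few genes of these lists are not reported here. Members and lists were chosen with earlier results of these data known. Coordinates and shared 90-base windows come from the GRCm38 annotation, GENCODE M21.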

Additional observations from a re-analysis of the deposited data

Results flagged for a closer look

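*Elovl6*, a fatty acid elongase gene on chromosome 3 (129532355 to 129638495), differed in direction between gates. Its log2 ratio of Postn-DTR over WT was -1.31 in the NK gate, from 61 and 11 UMIs, and 1.19 in T cells without killer cell genes, from 156 and 66 UMIs. The difference between the gates was not tested, since each group is 1 library.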

How the results depend on the processing

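No paired analysis was possible because each group is 1 library, and no library could be left out. The NK share ratio of 0.542 became 0.353 when cells were thinned to 1000 UMIs and 0.687 in the stricter gate. Outside the plasma and neutrophil gates it was 1.08, with an interval that spans 1 (0.871 to 1.34). Among T and NK gates it reversed to 1.93 (1.58 to 2.36). The counts of genes past 2-fold higher and lower, 38 and 45, were 68 and 94 with 0.02 added, 18 and 6 with 0.5 added, 83 and 87 for genes with 20 or more UMIs, 20 and 15 for 100 or more, and 139 and 109 with no minimum. Thinning to 2000 UMIs gave 22 higher, and keeping only cells without *Il7r* UMIs, chosen after seeing the data, gave 70 lower. The cause was not tested, except that a larger addition shrinks the ratios of low genes by construction. The 83 genes past 2-fold kept their direction in every setting, with these exceptions. In the stricter gate 78 kept it and 3 were opposite. Without the 2 cells rich in *S100a8* and *S100a9*, a setting chosen after seeing the data, 2 were opposite. Of the 24 ranked genes all kept their direction in these settings, and 8 stayed past 2-fold with 0.5 added and 19 by summed UMIs. In percentage points, Postn-DTR minus WT, the share with *Eomes* differed by -9.09, and by 3.47 in the stricter gate, that with *Il7r* by 4.66, and by -6.86 in the stricter gate, and that with *Tigit* by 34.0, and by 17.1 when thinned to 2000 UMIs. Genes with few UMIs in the 110 Postn-DTR cells are limited by depth.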

Other observations

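MHC class I genes were near equality in the NK gate: of 11 compared none was past 2-fold, the median log2 ratio was -0.09, and the levels of *H2-D1* were 40.6 and 36.7 UMIs per 10000 (WT, then Postn-DTR), and the log2 ratios of *H2-K1* and *B2m* were 0.02 and -0.06. Of 8 interferon-stimulated genes compared none was past 2-fold and the median was 0.20, with *Irf7* at 0.766 and 1.05. Of 12 immediate early genes, which mark recent stimulation or the handling of cells, none was past 2-fold and the median was 0.08. *Junb* was at 32.5 and 26.6, *Fos* at 2.61 and 2.84 and *Nr4a1* at 6.07 and 7.48, while *Ier5* was at 4.38 and 2.51.

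Of the genes listed for maturation stage, *Ly6e*, a membrane protein gene, was at 8.86 and 14.4 (log2 ratio 0.69, 1274 and 861 UMIs). *Kit* was at 0.536 and 0.231 (-0.94, 77 and 14 UMIs, and -1.20 without the top cell of each library), *Ly6a* at 0.173 and 0.416 (0.92, 29 and 38 UMIs) and *Cd160* at 0.988 and 0.558 (-0.73, 127 and 37 UMIs, and -1.10 when thinned to 2000 UMIs). Of 14 circadian clock genes 3 had enough UMIs to be compared, with a median of 0.18.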
